A study of Mus musculus with 10 samples.

Results

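Myc, Mycn and Mycl are the 3 genes of the Myc family, and their DNA copy ratios were followed through 8 mouse ovarian tumors. A gene was a member if its symbol stood in the gene column of a copy ratio bin. Each member had 1 bin, so that the family makes up 3 of 21244 genes with a bin and 3 of 59640 bins. Bins within 3 Mb of a member, 230 in all, served as its surroundings. The same symbols were sought among 1991 marker rows of ascites cells, where 0 were found.

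Tumors were raised in C57BL/6 mice, where plasmids encoding Cas9, a guide RNA and the recombinase Cre were electroporated into fallopian tube epithelium. All 8 tumors share this origin, and DNA came from fixed, embedded tissue. Lkb1 encodes a kinase and is also called Stk11; 5 tumors carried its deletion and 3 had it intact. PAX8, a transcription factor of the fallopian tube epithelium, was recorded as positive in 4 tumors and negative in 4. Of the Lkb1-deleted tumors, 1 and 4 were PAX8-positive, and 2, 3 and 5 were PAX8-negative. Of the Lkb1-intact tumors, 1 was PAX8-negative, and 2 and 3 were PAX8-positive. Ascites cells, with red cells removed, came from 1 mouse with an Lkb1 deletion, whose number in the labels is that of Lkb1-deleted tumor 1. Other genes targeted by guides, the age of the mice and the share of tumor cells in each piece are not given in the sources used here. A tissue piece holds normal cells too, so fewer tumor cells and a smaller copy change per cell cannot be told apart.

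The Myc proteins are transcription factors with a helix-loop-helix and leucine zipper. They pair with MAX, bind the E-box sequence CACGTG, and raise genes of ribosome building, metabolism and the cell cycle, while proteins of the MXD group and MNT compete for MAX. Myc is active in many dividing tissues, Mycn chiefly in neural and embryonic tissue, and Mycl was first described in human lung cancer. In human serous ovarian cancer, MYC lies in a chromosome stretch that is often gained.

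The Myc bin spans bases 61985391 to 61990374 of chromosome 15 in the build GRCm38, 4983 bp that hold nearly the whole gene. The Mycn bin spans 12936093 to 12941914 of chromosome 12, 5821 bp. The Mycl bin spans 122995652 to 123002485 of chromosome 4, 6833 bp. These bins are short: the median bin has 18627 bp, and 4.82%, 5.88% and 7.04% of bins are no longer than those of Myc, Mycn and Mycl. Short bins hold fewer reads. The mean depth was lowest in Lkb1-deleted tumor 1 (1.25) and highest in Lkb1-deleted tumor 5 (2.24), and the log2 values of neighbouring bins had an SD of 0.20 to 0.30. Among 2738 genes with 1 bin of 4000 to 8000 bp, the deviation of the gene from its surroundings had an SD of 0.30 to 0.42.

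Promoter sequences show which part of each gene start the copy ratio covers. RefSeq (GRCm38.p6) gave the 250 bases before the start of Mycn, chr12:12941837-12942086 on the minus strand. For Mycl it gave those before a start inside the gene, chr4:122995681-122995930 on the plus strand. Capitals mark CG pairs.
Mycn: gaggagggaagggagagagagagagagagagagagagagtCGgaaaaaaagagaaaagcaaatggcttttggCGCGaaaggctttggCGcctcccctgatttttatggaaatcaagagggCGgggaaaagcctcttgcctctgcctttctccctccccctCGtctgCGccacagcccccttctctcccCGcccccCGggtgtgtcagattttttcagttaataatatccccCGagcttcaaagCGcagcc
Mycl: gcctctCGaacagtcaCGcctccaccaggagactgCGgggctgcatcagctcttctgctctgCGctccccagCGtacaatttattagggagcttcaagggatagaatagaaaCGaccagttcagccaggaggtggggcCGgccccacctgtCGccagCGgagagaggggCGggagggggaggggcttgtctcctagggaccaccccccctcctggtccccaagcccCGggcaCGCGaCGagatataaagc
The Mycl bin holds all 250 of these bases, and the Mycn bin holds the 78 nearest the gene. The Mycl bases lie within the RefSeq span of the gene, 122995588 to 123002490. The Mycl bin begins at 122995652, inside that span, so it holds no base before the first start of the gene. Mycn has 11 CG pairs and 54.8% G or C, and Mycl has 14 and 63.6%. Over 32851 promoters the medians were 6 and 52.4%, and 35.6% and 29.4% of promoters had at least as many CG pairs as Mycn and Mycl. Neither stretch holds CACGTG, which reads alike on both strands and occurs in 6.02% of promoters.

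Across the family, gene values past 0.2 on the log2 scale were counted as gains and those below -0.2 as losses. Of 24 pairs of member and tumor, 4 were gains (16.7%) and 9 were losses (37.5%). Over all genes, 19.1% of pairs were gains and 24.7% losses, and over genes with 1 bin of 4000 to 8000 bp the shares were 23.7% and 36.5%. The member counts thus lay near those of genes with bins of like length. A focal change was a gene value more than 0.5 above, or more than 0.5 below, the median of the other bins within 3 Mb. By this rule 1 pair was a focal gain (4.17%) and 5 were focal losses (20.8%). The shares over all genes were 2.66% and 5.57%, and over the short bins 5.15% and 11.5%. No member was gained in at least 4 tumors, which held for 12.3% of genes. Mycn alone of the 3 was lost in at least 4, which held for 19.2% of genes and for 36.7% of short-bin genes.

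**Figure D1:**
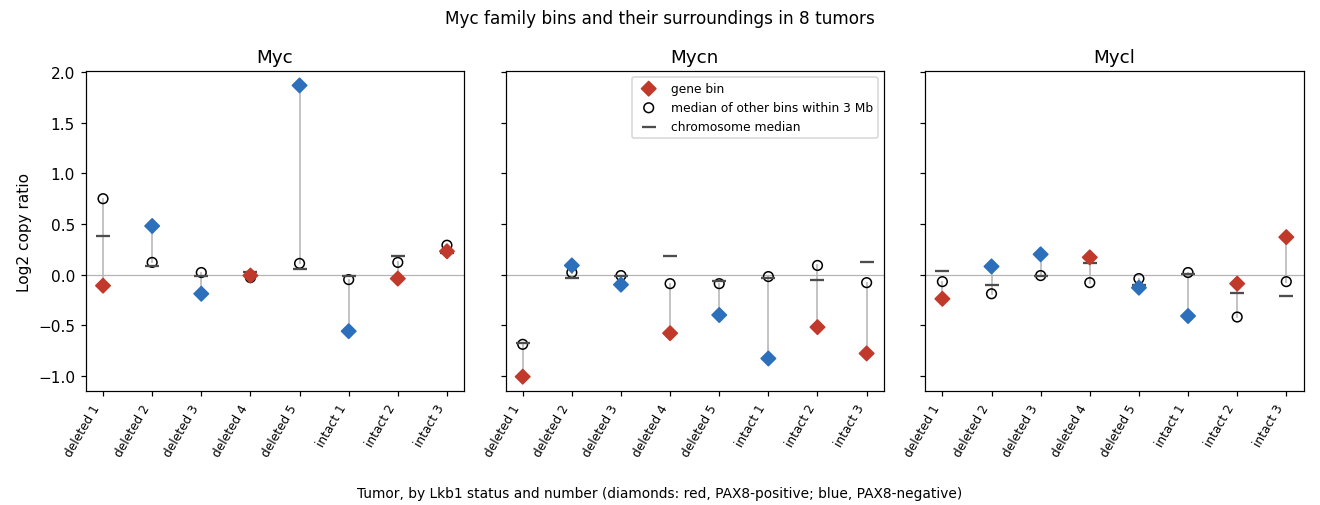
Log2 copy ratio of the Myc, Mycn and Mycl bins in 8 tumors (diamonds, red for PAX8-positive and blue for PAX8-negative), with the median of the other bins within 3 Mb (circles) and of the chromosome (dashes). Myc stands at 1.87 in Lkb1-deleted tumor 5 over surroundings of 0.11, and Mycn lies under its surroundings in 7 of 8 tumors.

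Myc, the member most widely used in dividing cells, was near its surroundings in most tumors and far above them in Lkb1-deleted tumor 5. Its log2 copy ratio in Lkb1-deleted tumors 1 to 5 was -0.11, 0.48, -0.19, -0.01 and 1.87. In Lkb1-intact tumors 1 to 3 it was -0.56, -0.04 and 0.23. The gene was thus gained in 3 tumors and lost in 1, and the Lkb1 groups overlapped.

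In Lkb1-deleted tumor 5 the value of 1.87 is a linear ratio of 3.66, and the bin had a depth of 6.00 against a median of 2.17. The median was 0.11 over the other bins within 3 Mb and 0.05 over chromosome 15, so the deviation was 1.76. That is 5.97 times the SD over short bins in that tumor, and no other of the 2738 genes with short bins deviated as far there. Only 4 of 21244 genes read as high as Myc or higher in that tumor. They were chosen after their values were seen: C1ql2 (5.02), Gm21836 (2.06), Gm3893 (1.96) and Rpl9-ps6 (1.89), each with 1 bin on another chromosome.

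The gain in Lkb1-deleted tumor 5 covered 5 bins in a row. They belong to 4933412E24Rik (1.65), Fam84b (gene value 1.67), A1bg (1.35) and Myc (1.87), and run over 1.98 Mb, from base 60014866 to 61990374. The same 5 bins had medians between -0.17 and 0.48 in the other 7 tumors. Its limits fall in stretches with no bin, on the left from the end of the Trib1 bin at 59657099 and on the right to the start of the Gsdmc bin at 63775968. If unbroken, the gain is thus at least 1.98 Mb and at most 4.12 Mb long. The lower bound is 1.17 Mb, from Fam84b to Myc, without the bin of 4933412E24Rik. Long stretches inside it also hold no bin, from 60016613 to 60818994 and from 60923012 to 61985391. Whether the gain is unbroken there was not measured. The right gap of 1.79 Mb contains Pvt1 (62037986 to 62260215), a long noncoding RNA gene that is gained together with MYC in human cancers. Pvt1 has 0 bins, so its copy ratio was not measured. The 4933412E24Rik bin is the least steady of these neighbours, with values from -1.02 to 1.65 over the 8 tumors.

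**Figure D2:**
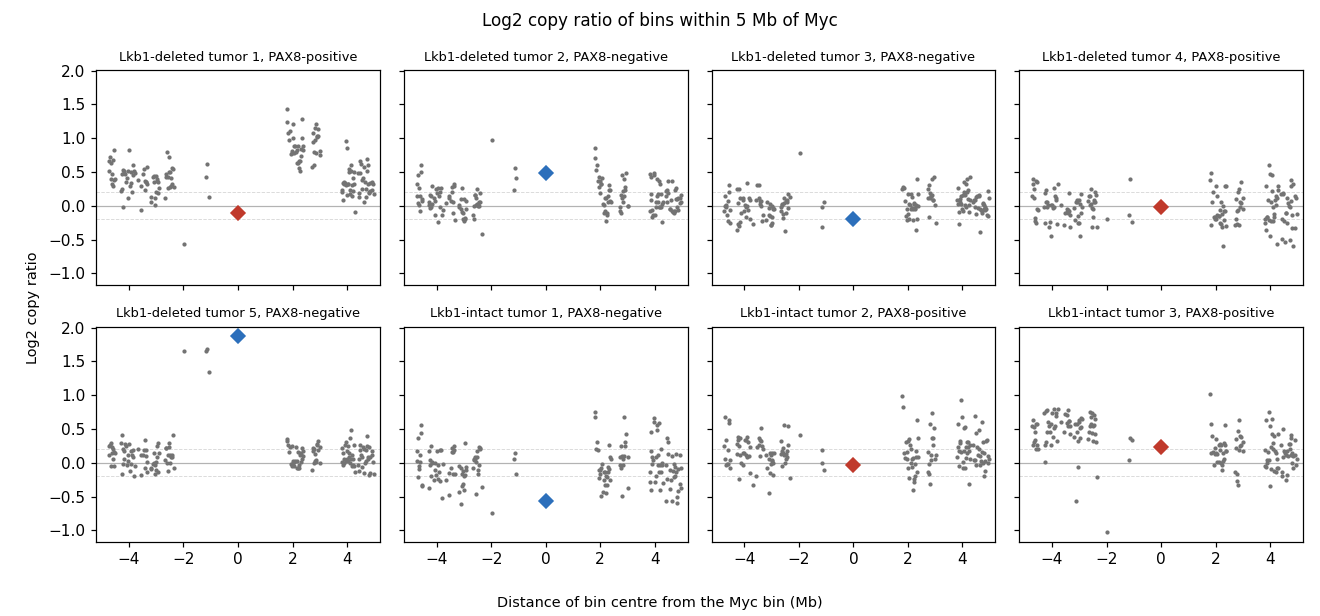
Log2 copy ratio of single bins within 5 Mb of Myc in each tumor against the distance of the bin centre from the Myc bin in Mb, with Myc as a diamond (red, PAX8-positive; blue, PAX8-negative). In Lkb1-deleted tumor 5 the Myc bin and the 4 bins to its left stand between 1.35 and 1.87, and in Lkb1-deleted tumor 1 the bins to the right of Myc stand high.

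In Lkb1-deleted tumor 1 most bins within 3 Mb were gained, while Myc and the bins just to its left were uneven. From the nearest outward, A1bg read 0.13, Fam84b 0.52 and 4933412E24Rik -0.57, and the 5 bins that end with Myc had a median of 0.13. Around Myc, the 3 Mb median was 0.75, with 0.41 to the left of Myc and 0.88 to the right, against 0.38 for the chromosome. From Gsdmc2 to Adcy8 (63824346 to 64937996), 39 bins had a median of 0.88. All bins beyond it, up to 69101211, had a median of 0.33. The first of these, at Gm21961 (64979544 to 65014904), still read 0.81 and 0.75, so the high stretch ran past Adcy8. Gsdmc2 belongs to the gasdermins, pore-forming proteins of dying cells, and Adcy8 encodes an adenylyl cyclase. Myc read -0.11 there, with a depth of 0.86 and a deviation of -0.87, which 4.78% of the short-bin genes matched or passed in size. This was the shallowest library, and a gain that spares these bins and the error of single bins cannot be told apart here.

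Lower plateaus were seen in 2 more tumors, again in stretches chosen after their values were seen. In Lkb1-deleted tumor 2 the bins from Fam84b to Myc had a median of 0.44 and those from Gsdmc2 to Fam49b 0.37, against 0.05 over Asap1 and 0.01 from Mtss1 to Trib1 on the other side. Myc itself read 0.48 there. In Lkb1-intact tumor 3 the bins left of Myc had a median of 0.52 and those right of it 0.19, with Myc at 0.23 between them. The higher values on the left lay from Mtss1 to Trib1 (median 0.54), and the 5 bins that end with Myc had a median of 0.23. Gsdmc, the first measured gene to the right of Myc, read above 0.2 in all 8 tumors (0.26 to 1.34), so its height does not tell the tumors apart. Its neighbours Gsdmc2 and Gsdmc3 did so in 5 and 4 tumors.

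Myc was low in Lkb1-intact tumor 1, at -0.56 over surroundings of -0.05. This deviation of -0.51 is 1.21 times the SD over short bins in that tumor, and 22.3% of short-bin genes deviated as far. In Lkb1-deleted tumors 3 and 4 and in Lkb1-intact tumor 2 the deviations were -0.22, 0.02 and -0.16. All 3 lie within the short-bin SD of their tumor.

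Mycn, the member known from amplification in human neuroblastoma, was low in most tumors while its neighbours were not. It read -1.01, 0.09, -0.10, -0.58 and -0.40 in Lkb1-deleted tumors 1 to 5, and -0.83, -0.52 and -0.78 in Lkb1-intact tumors 1 to 3. The gene was thus lost in 6 tumors and gained in 0. A loss in at least 6 tumors was found for 5.17% of all genes and for 11.1% of short-bin genes. In Lkb1-deleted tumor 1 the whole chromosome 12 was low, with a median of -0.68, and the other bins near Mycn had -0.69.

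Away from that tumor the 3 Mb medians around Mycn were -0.09 to 0.09. In Lkb1-deleted tumor 4 the bins left of Mycn had -0.22 and those right of it 0.02, against 0.18 for chromosome 12. Lkb1-intact tumor 3 had -0.08 near Mycn against 0.12 for the chromosome, and Lkb1-intact tumor 2 had 0.09 against -0.05. The deviations were -0.32, 0.08, -0.09, -0.50 and -0.31 in Lkb1-deleted tumors 1 to 5, and -0.81, -0.60 and -0.70 in Lkb1-intact tumors 1 to 3. They were past the focal threshold of -0.5 in the 3 Lkb1-intact tumors, and Lkb1-deleted tumor 4 lay at its edge. Each of these deviations was between 0.21 and 1.91 times the SD over short bins of its tumor in size. Ddx1, an RNA helicase gene 275 kb from Mycn that is amplified with MYCN in some human neuroblastomas, read -0.76 in Lkb1-deleted tumor 1, where the other 7 tumors read -0.19 to 0.21. Nbas, whose protein acts in transport between Golgi and endoplasmic reticulum, has 16 bins and read -0.62 in that tumor and between -0.08 and 0.14 in the others. On the left, Fam49a (6 bins) read -0.73 there and -0.23 to 0.11 in the others, and Vsnl1, a neuronal calcium sensor gene (6 bins), -0.68 and -0.16 to 0.16. The single bins of Rad51ap2 and Fam84a varied more, from -0.65 to 0.13 and from -1.31 to 0.30.

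**Figure D3:**
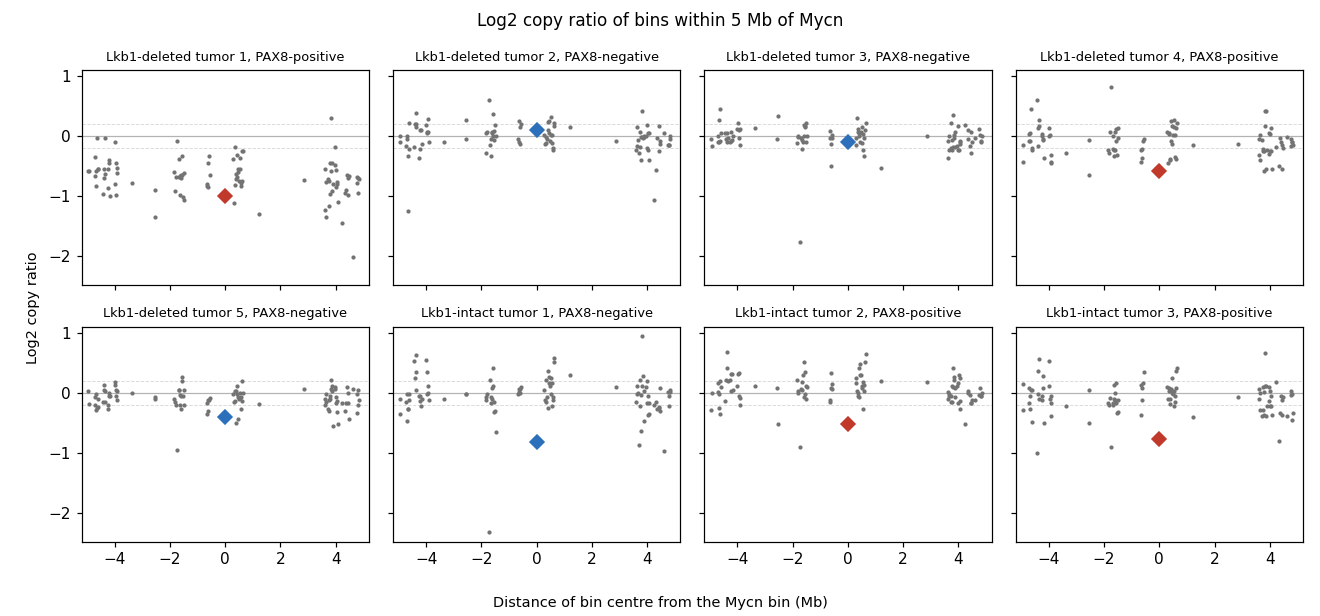
Log2 copy ratio of single bins within 5 Mb of Mycn in each tumor against the distance of the bin centre from the Mycn bin in Mb, with Mycn as a diamond (red, PAX8-positive; blue, PAX8-negative). Apart from Lkb1-deleted tumor 1, where most bins are low and their 3 Mb median is -0.69, the neighbours lie around 0 and Mycn lies at -0.83, -0.52 and -0.78 in Lkb1-intact tumors 1 to 3.

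Whether the low Mycn bin belongs to the tumors or to the bin cannot be told apart without a normal library, and the control library was not analysed here. Set against its own median over the 8 tumors, Mycn was lost in 3 tumors, gained in 2, and focally low in 0. That scale removes any change shared by most tumors, whatever its source, so it cannot decide the question either. The median deviation of short bins was -0.10, -0.08 and -0.09 in Lkb1-intact tumors 1 to 3 and between -0.06 and 0.03 in the Lkb1-deleted tumors.

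The focal deviation of Mycn was higher in Lkb1-deleted tumors, -0.23 ± 0.22 (SD, n = 5), than in Lkb1-intact tumors, -0.70 ± 0.10 (SD, n = 3). The groups did not overlap, and the difference of 0.48 had an exact two-sided permutation p of 0.0357 over 56 splits, where 0.0179 is the smallest possible. Groups not overlapping in this direction were found for 3.32% of 21098 genes. The limma fit of the focal deviation over these genes, with both labels, gave Mycn an adjusted p of 0.405, and called 0.00948% of genes by Lkb1. The comparison was made after the values were seen, and it fails the correction. Median short-bin deviations were also lower in the Lkb1-intact tumors, as given above, and their part in the difference was not tested.

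**Figure D4:**
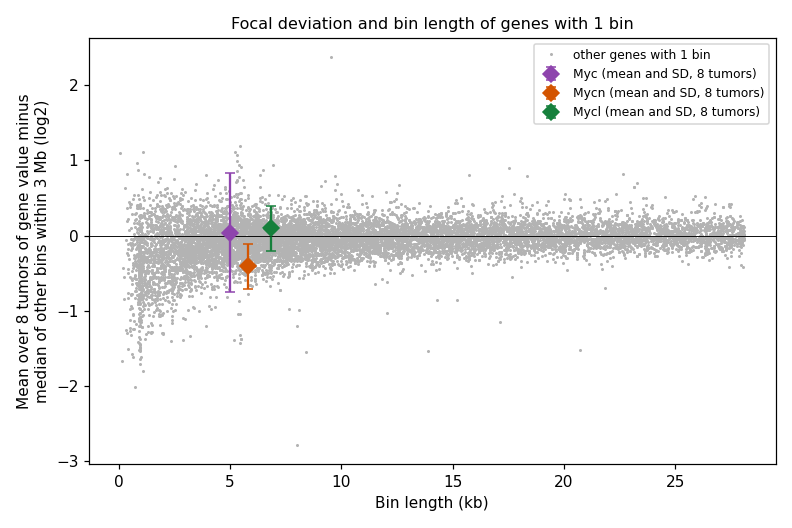
Focal deviation, the mean over 8 tumors of the gene value minus the median of the other bins within 3 Mb (log2), against bin length in kb for 11385 genes with 1 bin, with the mean and SD over tumors of Myc, Mycn and Mycl. Short bins scatter more and reach lower values, and Mycn, at a mean of -0.41, lies in the lower part of the cloud at its length.

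Mycl, the third member, showed no focal change in any tumor. It read -0.24, 0.08, 0.20, 0.17 and -0.13 in Lkb1-deleted tumors 1 to 5, and -0.41, -0.09 and 0.37 in Lkb1-intact tumors 1 to 3. The gene was gained in 1 tumor and lost in 2, and no deviation passed 0.5 either way. The deviations were -0.16, 0.27, 0.20, 0.25 and -0.08 in the Lkb1-deleted tumors, and -0.43, 0.33 and 0.44 in the Lkb1-intact tumors. The largest was 1.04 times the SD over short bins in its tumor.

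In Lkb1-intact tumor 2 the surroundings of Mycl were low, at -0.42 within 3 Mb and -0.41 within 10 Mb, against -0.18 for chromosome 4. Mycl read -0.09 there. Trit1, which encodes a tRNA-modifying enzyme and starts 14.1 kb from the Mycl bin, was lost in 5 tumors (2 bins, median -0.23). Mfsd2a, a lipid transporter gene 34.5 kb away, was lost in 4 (1 bin, median -0.20). Cap1 and Ppt1 share their 3 bins (median -0.12), as do Bmp8b and Oxct2b their 2 (median -0.13). In Lkb1-intact tumor 3, where Mycl was highest (0.37), Mfsd2a read -0.91 and Trit1 -0.21, each on bins of its own.

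No group difference in the gene value of a member passed its test. By Lkb1 status, Myc had a gene value of 0.41 ± 0.86 (SD, n = 5) in the deleted group and -0.12 ± 0.40 (SD, n = 3) in the intact group (exact permutation p = 0.429). Mycn had -0.40 ± 0.43 (SD, n = 5) and -0.71 ± 0.17 (SD, n = 3), with an exact p of 0.286, and Mycl 0.02 ± 0.19 (SD, n = 5) and -0.04 ± 0.39 (SD, n = 3), with an exact p of 0.839. By PAX8, positive minus negative, the differences were -0.39 for Myc, -0.41 for Mycn and 0.12 for Mycl, with exact permutation p of 0.657, 0.143 and 0.6 (n = 4 each, smallest possible 0.0286). The Myc difference by PAX8 was -0.39 with Lkb1-deleted tumor 5 and 0.11 without it.

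A limma model of all 21100 genes with both labels gave adjusted p of 0.848 for Myc, 0.848 for Mycn and 0.921 for Mycl by Lkb1. By PAX8 the limma adjusted p were 0.888, 0.739 and 0.856. That model called 2 genes by Lkb1 (0.00948%), which are no members, 5730507C01Rik on chromosome 12 and Fam205a4 on chromosome 4, each with 1 bin. By PAX8 it called 0 genes (0%), with 1520 at an unadjusted p under 0.05. The term for unlike Lkb1 effects in PAX8-positive and PAX8-negative tumors had limma adjusted p of 1 for Myc, 0.993 for Mycn and 1 for Mycl. It rests on groups of 1 to 3 tumors.

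No group difference of the surroundings passed its exact test. Within 3 Mb of Myc, PAX8-positive tumors had 0.28 ± 0.34 (SD, n = 4) and PAX8-negative tumors 0.05 ± 0.08 (SD, n = 4), with an exact permutation p of 0.2. For Mycn the exact permutation p was 0.464 by Lkb1 and 0.6 by PAX8, and for Mycl 0.625 and 0.4.

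Genes whose values ran most like a member's were sought over the 8 tumors among 13347 genes with an SD of at least 0.2, as a description with no test. Nearest to Myc were Ttll4 (Pearson r 0.95, chromosome 1), 1700012A03Rik (0.95, chromosome 6) and Klhl30 (0.91, chromosome 1). All 3, like Myc, were highest in Lkb1-deleted tumor 5, at 0.52, 0.24 and 0.30. Near to Mycn were Zfp503 (0.95, chromosome 14) and Vmn2r35 (0.93, chromosome 7), and nearest to Mycl were Olfr1555-ps1 (0.98, chromosome 19), Rrad (0.96, chromosome 8) and Tectb (0.95, chromosome 19). On the member's own chromosome, more than 10 Mb away, the highest were Krt84 for Myc (0.74), Agr2 for Mycn (0.92) and Actrt2 for Mycl (0.84). Ttll4 and Vmn2r35 have 2 bins and the others named here 1, and depth is shared by all bins of a tumor. Between the members r was 0.31 for Myc and Mycn, 0.09 for Myc and Mycl, and 0.38 for Mycn and Mycl.

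Genes of the MAX network, the dimer partners and rivals of Myc, were all measured, 10 of 10. Among them 0 were gained and 2 were lost in at least 4 tumors, beside 12.3% and 19.2% of all genes, so the losses lay near the share over all genes. Mnt, whose protein competes with Myc for MAX and represses its targets, was lost in 7 tumors, with a mean log2 of -0.35 ± 0.27 (SD, n = 8). Its lowest value was -0.91, in Lkb1-intact tumor 3, and its highest 0.02, in Lkb1-deleted tumor 3. Mxd4, another repressor that pairs with MAX, was lost in 5 and gained in 1, with a mean of -0.17 ± 0.25 (SD, n = 8). Both rest on 1 bin. A loss in at least 6 tumors, as for Mnt, was found for 5.17% of all genes. Here too, a low bin and a loss in the tumors cannot be told apart without a normal library. Max itself read -0.73 in Lkb1-deleted tumor 1, where it lies on the low chromosome 12, and between -0.28 and 0.31 in the others. In that tumor 6 of the 10 network genes were lost, against 1 to 4 in the other tumors, and 34.2% of all genes were lost there. The median over the network was -0.02, as over all genes.

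Among the cofactors and regulators of Myc, 21 of 22 genes were measured, 1 was gained and 2 were lost in at least 4 tumors, both smaller shares than the 12.3% and 19.2% over all genes. Aurka, a mitotic kinase that shields MYCN from breakdown, was gained in 4 tumors, at 0.56, 0.36, 0.46 and 0.54 in Lkb1-deleted tumors 1 and 4 and Lkb1-intact tumors 1 and 2. In the other 4 it read between -0.00 and 0.14. Mycbp, which encodes a small protein that binds MYC, was lost in 7 tumors, with a mean of -0.48 ± 0.37 (SD, n = 8). Mycbp lies on chromosome 4, 0.909 Mb from Mycl, and its bin is among those used as the surroundings of Mycl. It reached -1.04 in Lkb1-deleted tumor 2, and it has 1 short bin. A loss in at least 6 tumors was found for 5.17% of all genes and for 11.1% of short-bin genes. As for Mycn, a low bin and a loss in the tumors cannot be told apart without a normal library. Kat2a, a histone acetyltransferase gene, was lost in 4 and gained in 1. Fbxw7, the ubiquitin ligase gene that marks Myc for breakdown, was gained in 2 tumors and lost in 0, and its 74 bins are shared with other genes. The median over the cofactors was -0.03, against -0.02 over all genes.

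**Figure D5:**
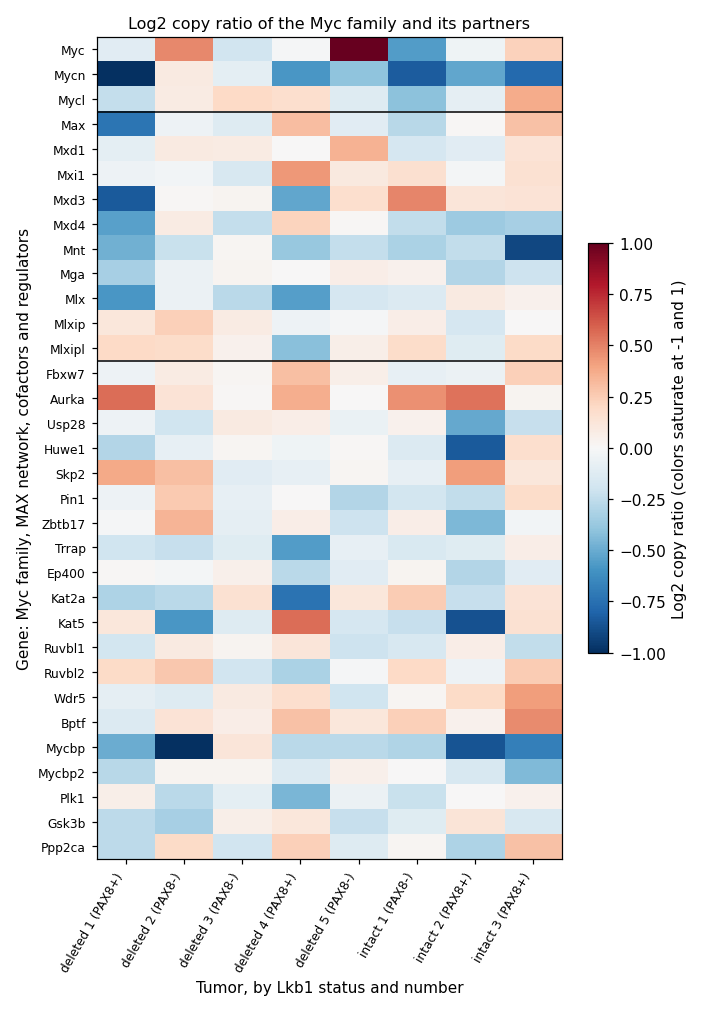
Log2 copy ratio of the 3 members (top block), 10 genes of the MAX network (middle block) and 20 of the 21 measured cofactors and regulators (bottom block) in 8 tumors, from blue (low) to red (high), with colors saturated at -1 and 1. Myc in Lkb1-deleted tumor 5 is the deepest red, and Mycn, Mnt and Mycbp are blue in 6, 7 and 7 tumors past the threshold.

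No member of the Myc family was listed in the ascites cells, in the authors' deposited table of 1991 markers of 9 clusters or in the authors' deposited table of 1511 copy number gene rows. The marker table starts at an average log fold change of 0.50, so a level alike in all clusters would not be listed, and no absence of Myc RNA can be read from it. None of the 31 copy number regions in the authors' deposited table covers a member. The nearest regions to Myc lie 17.4 Mb to its left and 16.6 Mb to its right, the nearest to Mycn lies 97.7 Mb away, and chromosome 4 has 0 regions.

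Listed targets of Myc were spread over several clusters. In the authors' deposited table, 7 of 44 target genes were markers of the cluster named CAFs (360 markers), 3 of the tumor cell cluster (572), 2 of the T-cells (220), 2 of the dividing cells (112) and 1 of the B-cells (215). The number of genes tested for each cluster is not known here. No share over all genes can thus stand beside these counts or those of the lists below, and no enrichment is read from them. The tumor cell cluster listed Ccnd2, a cyclin of G1 phase (1.16 as average log fold change in the authors' deposited table), Cdk4, its kinase (1.01), and Hspe1, a mitochondrial chaperone (0.61). The CAFs listed Npm1, a nucleolar chaperone of ribosome building (1.38 in the authors' deposited table), Srm, an enzyme of spermidine synthesis (0.98), Cdk4 (0.93), Ran, a GTPase of nuclear transport (0.79), Ccnd2 (0.71), Hspd1 (0.62) and Hspe1 (0.59). Of the MAX network, Mxd1, a repressor that takes MAX from Myc in maturing cells, was listed for the monocytes (1.87 in the authors' deposited table). That cluster also listed Gadd45a (1.27) and Gadd45b (1.24) of 9 genes that Myc represses, and all 4 neutrophil markers, per the authors' deposited table. The tumor cell cluster listed 6 of 10 epithelial markers, without Pax8, Cdh1, Muc1 and Ovgp1, and 5 of 5 mesothelial markers. Wt1 and Krt19 stand in both of these lists. Of 5 fibroblast markers, the tumor cell cluster listed 1, Dcn (2.33 in the authors' deposited table), and the CAFs listed 5, with Dcn at 1.89. This is 1 library, so no test was made, and the sources used here do not state how doublets were handled.

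E-box sites were then read before the starts of the target genes. Of the target genes listed as markers, only 4 had a promoter entry, and the 3 of these that hold the motif are shown. CACGTG is in capitals, and RefSeq (GRCm38.p6) gives the sites as chr10:127063346-127063385 on the plus strand for Cdk4, chr1:55088301-55088340 on the minus strand for Hspd1, and chr5:129020021-129020060 on the plus strand for Ran.
Cdk4: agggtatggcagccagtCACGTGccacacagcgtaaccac
Hspd1: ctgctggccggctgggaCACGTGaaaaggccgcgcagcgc
Ran: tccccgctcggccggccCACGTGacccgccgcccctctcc
The motif starts 172, 80 and 118 bases before the start of Cdk4, Hspd1 and Ran. In the 250 bases before the start, 8 of 37 target genes with an entry hold it (21.6%), against 6.86% of 27025 genes. A match of letters says nothing of binding in these cells.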

How the data were processed

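Reads of 8 tumors had been aligned and the single cells clustered with BWA, Picard, Cell Ranger and Seurat 2.3.4 on GRCm38, per the submitters' processing notes. The authors deposited a log2 copy ratio and a read depth (coverage signal) per bin, per the file headers. The reference behind the ratio is unknown here, and the control library was not analysed here. The authors deposited ascites markers as an average log fold change, read as a natural log from the Seurat version, with p-values. The authors also deposited copy number regions with a state score.

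Bins were summarised per gene by their median, with depth 0 as missing (7 to 50 bins per tumor). Comparisons of groups used two-sided exact permutation and limma 3.58.1 in R 4.3.3 with Benjamini-Hochberg adjustment over all genes, and the functions were tested on simulated data. P-values measure the spread between tumors. Named genes were the members, their 3 nearest measured genes per side, network and cofactor genes gained or lost in 4 tumors or more, the most alike genes, and listed ascites genes. Other named genes were chosen after their values were seen. Results for some genes under this rule are not reported here. Members and gene lists were chosen with earlier results of these data known. Alternatives covered thresholds, windows, centring, single labels and each tumor left out. Python 3.11.15, numpy 2.4.6, pandas 2.3.3, scipy 1.17.1 and matplotlib 3.10.9 were used.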

Additional observations from a re-analysis of the deposited data

Results flagged for a closer look

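Of 27 groups of values checked, 3 held a tumor that stood apart from the rest of its group, and chance flags about 1 in 20 groups. Among the Lkb1-deleted tumors, the bins around Myc had a median of 0.75 in tumor 1, where the other 4 lay between -0.03 and 0.12. Among the same tumors, the bins around Mycn had a median of -0.69 in tumor 1, where the other 4 lay between -0.09 and 0.02. Among the PAX8-positive tumors, the bins around Mycl had a median of -0.42 in Lkb1-intact tumor 2, where the other 3 lay between -0.08 and -0.07.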

How the results depend on the processing

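Of 165 alternative values, 126 kept their direction and side of the threshold. For results that are counts, this means a count equal or close to the main one. The limma count by Lkb1 of 2 genes became 8 with that label alone and 10 among genes of 2 or more bins. Leaving out 1 tumor gave 0 to 4 by Lkb1 (0 without Lkb1-deleted tumors 1 or 4 or Lkb1-intact tumor 1, 1 without Lkb1-deleted tumors 2 or 3, 4 without Lkb1-deleted tumor 5 or Lkb1-intact tumor 3) and 0 to 2 by PAX8 (2 without Lkb1-deleted tumor 4). With all bins within 3 Mb in place of the gene bin, the Myc difference by PAX8 turned to 0.23, that of Mycn by Lkb1 to -0.17 (-0.22 within 1 Mb) and that of Mycl by PAX8 to -0.11 (-0.07 within 1 Mb). These windows measure the surroundings. With each tumor left out, the difference by Lkb1 ran from 0.16 to 0.71 for Myc, 0.18 to 0.46 for Mycn and -0.12 to 0.27 for Mycl (negative without Lkb1-intact tumor 1). By PAX8 it ran from -0.71 to 0.11 for Myc (positive without Lkb1-deleted tumor 5), -0.59 to -0.28 for Mycn and 0.00 to 0.21 for Mycl. Without Lkb1-intact tumor 1 the Mycn difference by PAX8 of -0.59 had an exact permutation p of 0.0286, the smallest possible with that tumor left out. The Mycn focal difference by Lkb1 ran from 0.40 to 0.54, with exact permutation p from 0.0286 to 0.0952. It lost its call without Lkb1-deleted tumors 1, 2, 3 or 5 or Lkb1-intact tumors 1 or 3. Fewer splits remain with a tumor left out, and the smallest possible p is larger, which alone can cost a call. With windows of 1 and 10 Mb the Mycn focal difference was 0.53 and 0.51. Those alternatives were chosen after seeing the data.

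Counts of tumors moved with the threshold. At 0.1 Myc was lost in 3 tumors, and Mycl was gained in 3 and lost in 3. At 0.3 Myc was gained in 2 and Mycl was lost in 1, and after recentring Mycl was likewise lost in 1. With the other bins within 1 Mb as surroundings, Mycn was focally low in 4. With a focal threshold of 0.3, Myc was focally high in 2 tumors, Mycn focally low in 6, and Mycl focally high in 2 and low in 1. Relative to the median of the 8 tumors, Myc was focally low in 1. On that scale Mycn was gained in 2, lost in 3, focally high in 1 and focally low in 0. Mycl was gained in 2 and focally low in 1. The cause was not tested. The focal gain of Myc in Lkb1-deleted tumor 5 kept its call under every alternative run for it. A window of 1 Mb around Myc holds no other bin and gave no value. No paired analysis was possible because each tumor carries its own number in the labels. Depth limits single bins: the members' bins are short, and 1 such bin carries an error above the threshold of 0.2.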

Other observations

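In the authors' deposited table of copy number genes in ascites cells, gene names and coordinates appear to be out of step by 1 row. The start of a row lay within 5 kb of the RefSeq start of its own gene in 47 of 1495 rows (3.14%) and of the gene named in the row above it in 1409 of 1480 rows (95.2%). No state from that table was therefore given for a named gene. No member of the Myc family is affected, since none is named there and no region lies near one.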
